A study of Mus musculus with 10 samples.

Results

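C1s1, C1ra, C2, C3, C4b, Serping1, Cfb and Serpina3n are 8 genes of the complement system or of its serpin inhibitors and relatives, and their transcripts were followed here across the cells of embryonic mouse back skin. They were chosen from the levels that single-cell RNA-seq of this skin gave in dermal fibroblasts, epithelial cells and macrophages, and were found by symbol, 8 of the 33243 gene identifiers listed in any library. Because the same levels chose them, their differences between groups in these 3 kinds of cell are described with their errors and no p-value is given for them. Counts of members that a fit called stand only beside the share of all genes called. The members also carry no weight as evidence that complement genes as a class respond.

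The study profiled total back skin with droplet-based single-cell RNA-seq in 10 libraries. Skin was taken on embryonic days E15.5 and E16.5 from MOF cKO embryos, in which both Mof alleles are floxed (MOF fl/fl) and deleted by Krt14-Cre, and from controls, with 2 libraries of each group at each stage. At E17.5 there was 1 library of QPC cKO skin (QPC fl/fl with Krt14-Cre) and 1 control. MOF (gene symbol Kat8) is the acetyltransferase of lysine 16 on histone H4, and QPC (gene symbol Uqcrq) is a subunit of mitochondrial respiratory complex III. Krt14-Cre acts in the epithelium, so dermal fibroblasts, macrophages and vessels of a cKO embryo are by design not its target. Controls were littermates, either wild type or heterozygous, and the mice had a mixed C57Bl/6J and CD-1 background with both sexes included. MOF cKO replicate 6 at E15.5 came from an embryo in which the deletion was mosaic. Nothing in the labels says whether replicate libraries came from separate litters, so p-values measure only the spread between these samples.

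Complement is a cascade of plasma proteins that marks cells and particles for removal. In the classical branch C1q binds a target and activates the proteases C1r and C1s, which cut C4 and C2 into the convertase that cleaves C3, while factor B, the product of Cfb, supplies the protease of the alternative branch, which amplifies C3 cleavage. Serping1 encodes the C1 inhibitor, a serpin that blocks C1r and C1s. Serpina3n is a secreted serpin of the acute-phase response that belongs to a cluster of closely related mouse genes and is not itself a complement component. Liver makes most plasma complement, and fibroblasts and macrophages make several components locally.

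The members lie on 4 chromosomes in GRCm38. C1ra (ENSMUSG00000055172, chr6:124512405-124523443, plus strand) and C1s1 (ENSMUSG00000038521, chr6:124530345-124542359, minus strand) are neighbours that lie 6901 bases apart. C2 (ENSMUSG00000024371, chr17:34862604-34898265), Cfb (ENSMUSG00000090231, chr17:34856374-34862518) and C4b (ENSMUSG00000073418, chr17:34728380-34743882) share the major histocompatibility region on the minus strand, and C3 (ENSMUSG00000024164, chr17:57203970-57228136, minus strand) lies farther along the same chromosome. Serping1 is at chr2:84765387-84775444 on the minus strand (ENSMUSG00000023224) and Serpina3n at chr12:104406729-104414329 on the plus strand (ENSMUSG00000021091). Only 85 bases separate C2 from Cfb, and Gm20547, which overlaps both on their strand, was listed in the E16.5 tables alone, so reads there may have been divided otherwise than at the other stages. C4b has a close copy, C4a, that was not listed at E16.5, and C1ra, C1s1 and Serpina3n have paralogs (C1rb, C1s2 and the other Serpina3 genes), so their counts are uncertain to the extent that reads fit both copies.

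Promoters are shown for C1ra, C1s1, Serpina3n and C3, the 4 of 8 members with an entry in the RefSeq promoter table used here. It covers GRCm38.p6, with 250 bases before and 50 after the start. The promoters are shown because 3 of these genes had some of the clearest differences at E16.5 and C3 had its difference in other cells. Each was searched on both strands for TTCNNNGAA, the palindrome bound by STAT proteins (found in 8.30% of 32851 promoters of this length), for GAAANNGAA, the element bound by interferon regulatory factors (8.56%), and for the NF-kB motif (4.51%). Capitals mark the only match, TTCCCTGAA in C1ra, which lies 32 bases past the RefSeq start. A second C1s1 start in that table, with the region chr6:124542272-124542571, is not shown and had no match. Regions are C1ra chr6:124512371-124512670 plus strand, C1s1 chr6:124542310-124542609 minus strand, Serpina3n chr12:104406458-104406757 plus strand and C3 chr17:57228087-57228386 minus strand.
C1ra: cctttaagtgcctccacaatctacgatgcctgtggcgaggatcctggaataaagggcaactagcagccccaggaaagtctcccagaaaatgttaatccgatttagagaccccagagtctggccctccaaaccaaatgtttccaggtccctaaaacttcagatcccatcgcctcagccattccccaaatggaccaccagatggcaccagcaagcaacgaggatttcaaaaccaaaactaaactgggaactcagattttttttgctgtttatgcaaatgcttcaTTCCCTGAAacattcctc
C1s1: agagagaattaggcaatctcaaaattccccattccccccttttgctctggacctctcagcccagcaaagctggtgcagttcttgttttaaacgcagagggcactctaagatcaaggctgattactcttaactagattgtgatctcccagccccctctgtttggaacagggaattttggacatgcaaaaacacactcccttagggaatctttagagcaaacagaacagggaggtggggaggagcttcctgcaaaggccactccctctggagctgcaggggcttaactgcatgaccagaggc
Serpina3n: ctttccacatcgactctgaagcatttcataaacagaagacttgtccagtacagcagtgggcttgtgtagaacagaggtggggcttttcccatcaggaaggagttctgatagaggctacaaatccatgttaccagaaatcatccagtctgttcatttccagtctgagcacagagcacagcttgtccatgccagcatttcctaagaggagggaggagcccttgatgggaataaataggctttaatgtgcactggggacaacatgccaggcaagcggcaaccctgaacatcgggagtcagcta
C3: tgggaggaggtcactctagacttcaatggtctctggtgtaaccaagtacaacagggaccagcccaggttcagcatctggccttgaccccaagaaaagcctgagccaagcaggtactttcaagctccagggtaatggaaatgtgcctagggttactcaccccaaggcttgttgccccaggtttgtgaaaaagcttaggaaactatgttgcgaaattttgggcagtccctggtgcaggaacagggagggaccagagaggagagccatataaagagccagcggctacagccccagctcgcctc

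Cells were kept when they had more than 1000 and fewer than 6000 genes and under 10% mitochondrial UMIs (unique molecular identifiers, each counting 1 captured transcript), which left 716 to 10653 cells a library from totals of 13609345 to 203392303 UMIs. A fibroblast-gated cell held at least 30 UMIs of Col1a1 and Col3a1 together and fewer than 10 of Krt5 and Krt14, an epithelial-gated cell at least 10 of Krt5 and Krt14, and a macrophage-gated cell UMIs of at least 2 of C1qa, C1qb and Csf1r. Libraries held 518 to 7389, 30 to 3069 and 33 to 260 such cells, and all 7 fibroblast markers not used in the gate (Dcn, Lum, Pdgfra and others) were detected in every fibroblast-gated library, at 11407 to 24326 summed CPM. CPM here is UMIs of a gene per 1000000 UMIs of the gated cells of 1 library, a unit free of transcript length. Kat8 in epithelial-gated cells was at 13.02 and 13.97 CPM in E15.5 controls against 13.04 and 10.04 in MOF cKO, and at 17.6 and 14.8 in E16.5 controls against 8.66 and 3.75 (5 and 3 UMIs). In fibroblast-gated cells, outside the reach of the Cre by design, Kat8 was also lower in every MOF cKO library, at 9.18 and 9.62 CPM in E15.5 controls against 6.83 and 5.98 and at 9.60 and 8.23 in E16.5 controls against 2.81 and 5.39. Whether the deletion extended to these cells was not tested. Uqcrq was at 106 CPM in epithelial-gated cells of the E17.5 control and 43.9 in QPC cKO, and at 69.4 and 122 in fibroblast-gated cells. These counts come from 1 end of the transcript and the deleted exons are not given in the sources used here, so they do not check the labels. Tables listed 32285 genes at E15.5 and E17.5 and 27998 at E16.5, and the labels give different kit versions for E16.5 and E17.5 and none for E15.5. Stage therefore cannot be told apart from these, and levels are compared within a stage.

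At E15.5 and E16.5 the 8 genes divided by the cells that held them. In controls of these stages Serping1, C1ra and C1s1 were mostly in fibroblast-gated cells, with high levels also in mural cells (gated, as Schwann and endothelial cells were, by UMIs of at least 2 of their own markers in cells of no other gate). Of all Serping1 UMIs in kept cells, fibroblast-gated cells held 90.5% in E15.5 controls and 85.5% in E16.5 controls. For C1ra the same shares were 72.2% and 71.7%. C1s1 was spread further, with 52.6% of its E15.5 control UMIs in fibroblast-gated, 25.0% in epithelial-gated and 21.3% in mural cells.

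C2 was found in many kinds of cell, with 39.5% of its E15.5 control UMIs in fibroblast-gated, 27.2% in epithelial-gated, 10.1% in Schwann and 9.55% in macrophage-gated cells. C3 was mainly in leukocytes, where macrophage-gated cells held 20.1% and other leukocytes 56.5% of its UMIs in E15.5 controls. Macrophage-gated cells held 66.7% of the Cfb UMIs there. Under these gates the E17.5 control divided otherwise. Epithelial-gated cells held 46.0% of its Serping1, 48.1% of its C2 and 39.3% of its C3 UMIs, against 50.6%, 31.8% and 25.3% in fibroblast-gated cells. Of these 3069 epithelial-gated cells, 1286 also reached the collagen limit of the fibroblast gate. This division moved with the gate. With gates scaled to the depth of each cell, fibroblast-gated cells held 3953 of its Serping1 UMIs and epithelial-gated cells 76. The same counts were 831 and 126 for C2 and 78 and 19 for C3. Endothelial-gated cells held 0 C1ra and 0 C4b UMIs in the 10 libraries together and at most 8 UMIs of any member in 1 library, that of Cfb in E17.5 QPC cKO (10.8 CPM).

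**Figure D1:**
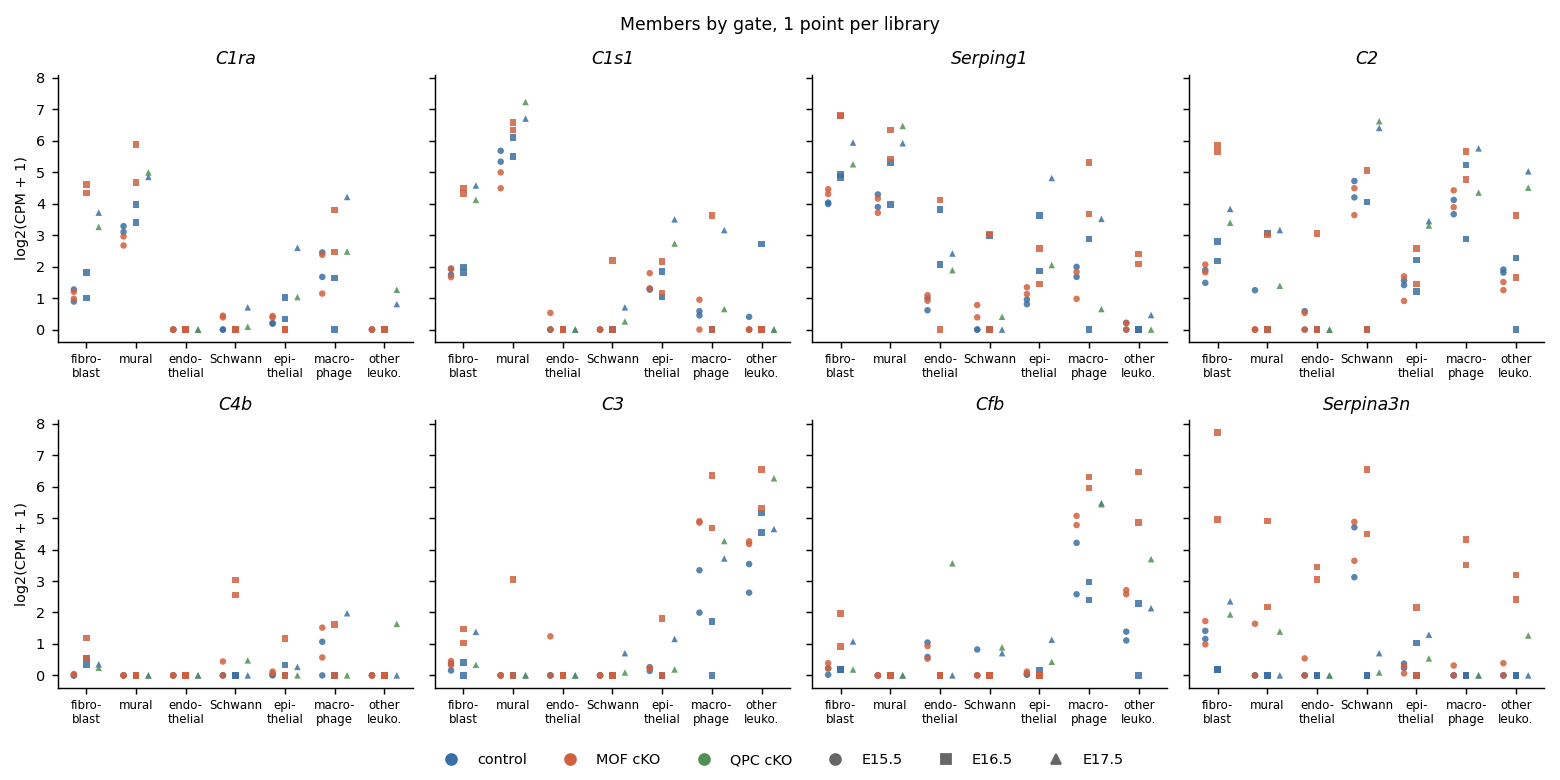
Level of each member in 7 kinds of cell, as log2(CPM + 1) on the y axis, with 1 point per library, shape for the stage and colour for the group. Serping1 is highest in fibroblast-gated and mural cells in most libraries, C3 and Cfb stand in macrophage-gated cells and other leukocytes, and the points of endothelial-gated cells above 0 rest on 1 to 8 UMIs each.

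Serping1, the C1 inhibitor, was at 14.9 and 15.4 CPM in fibroblast-gated cells of the E15.5 controls, at 18.7 and 13.9 in mural cells, at 0.749 and 0.937 in epithelial-gated cells and between 2.19 and 2.98 in macrophage-gated cells. The fibroblast and mural levels overlapped between the libraries, whereas the others lay far below both. With cells of more than 1 gate left out, macrophage-gated cells of control replicates 2 and 3 held 0 and 1 Serping1 UMIs (0 and 0.622 CPM). C1s1, a protease of the C1 complex, had another order: mural cells came first with 50.4 and 39.4 CPM, fibroblast-gated cells followed with 2.84 and 2.35, and epithelial-gated cells were at 1.41 and 1.48. C1ra, its partner protease, was likewise at 7.60 and 8.77 CPM in mural cells against 1.42 and 0.856 in fibroblast-gated cells. Mural cells were few, 9 to 189 a library, so the E16.5 values in them rest on small counts.

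The difference between groups that stands out lay in fibroblast-gated cells at E16.5, where every member that could be measured was higher in both MOF cKO libraries than in both controls, with the exception of C4b. It is described first for the 3 genes of the C1 complex and its inhibitor. Serping1 was at 27.5 and 29.4 CPM in control replicates 1 and 2 and at 110 and 111 CPM in MOF cKO replicates 1 and 2. The replicates of each group lay within a few CPM of each other, and the means were 28.5 ± 1.32 and 111 ± 0.749 CPM (SD, n = 2 each), a log2 fold change of 2.07 ± 0.15 (SE, edgeR). C1ra was at 2.50 and 0.996 CPM in the controls and at 23.5 and 19.3 CPM in MOF cKO, a log2 fold change of 3.87 ± 0.37. C1s1 was at 2.50 and 2.99 CPM against 19.1 and 21.6 CPM, a log2 fold change of 2.96 ± 0.22. Transcripts of the proteases C1r and C1s and of the serpin that inhibits both were thus all higher, with no overlap between the groups.

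C2, which C1s cleaves to form the C3 convertase, was at 5.98 and 3.52 CPM in the controls and at 57.7 and 49.6 CPM in MOF cKO, a log2 fold change of 3.68 ± 0.24. Cfb, the neighbouring gene that fills the place of C2 in the alternative branch, stayed low, with 1 and 2 UMIs in the controls (0.139 and 0.133 CPM) against 6 and 36 UMIs (0.888 and 2.90 CPM), and did not pass the filter on low counts. C3, the component on which both branches converge, had 0 and 5 UMIs in control replicates 1 and 2 (the 0 allows up to 0.417 CPM), while MOF cKO had 12 and 13 (1.78 and 1.05 CPM). Pooled over the libraries, the ratio of MOF cKO to control was 5.80 for C3 (95% interval 2.18 to 19.4) and 16.2 for Cfb (5.19 to 81.9), intervals that like all those given for counts cover counting error only. C4b, the other substrate of C1s, was at 0.278 and 0.465 CPM against 0.444 and 1.29 CPM, and its groups overlapped.

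Serpina3n had the widest gap of the 8 and also the widest spread. The controls had 1 and 2 UMIs (0.139 and 0.133 CPM), and MOF cKO replicates 1 and 2 had 1421 and 373 UMIs, which is 210 and 30.02 CPM. The MOF cKO libraries thus differed from each other by more than any other member did, and the log2 fold change of 9.80 ± 1.54 carries that spread. The pooled ratio was 694, with a counting interval of 237 to 3368 that leaves out the difference between replicates. Under the other ways of processing tried, the log2 fold change of Serpina3n ranged from 7.72 to 10.63 and that of Serping1 from 1.92 to 2.23, and for the 6 members that passed the filter no setting turned the direction.

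**Figure D2:**
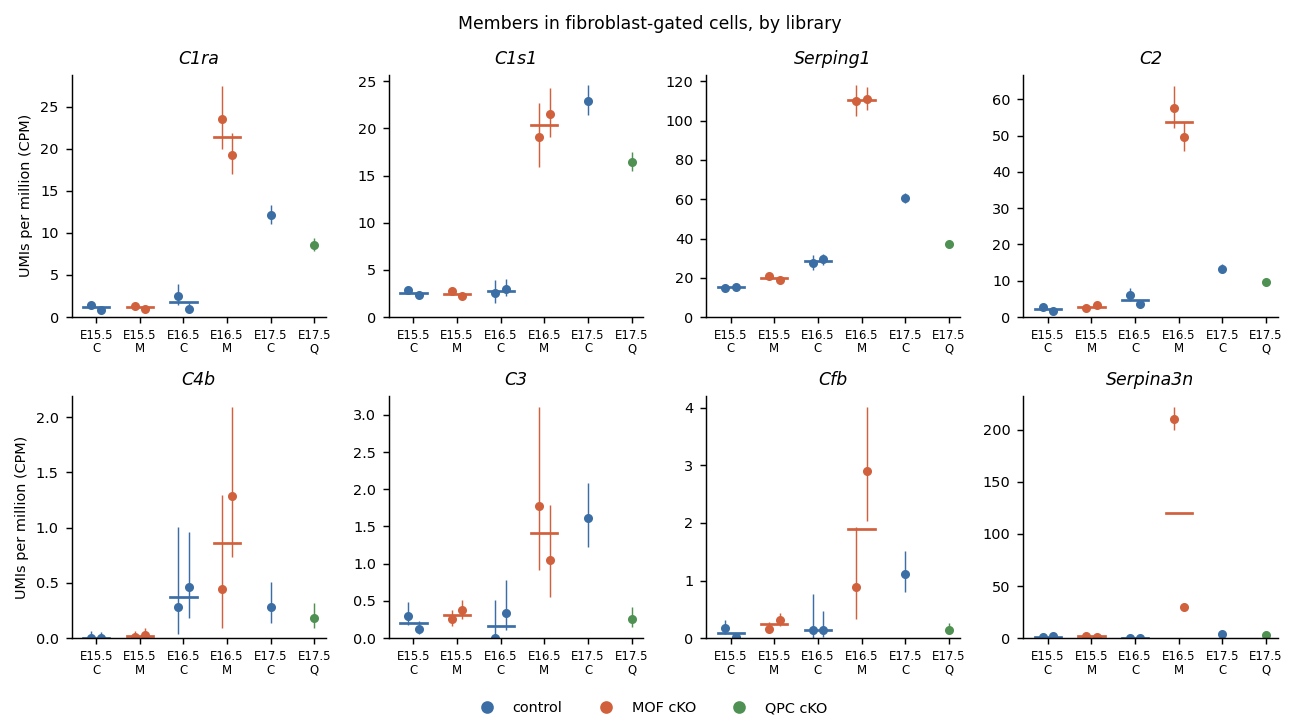
CPM of each member in fibroblast-gated cells, 1 panel per gene with an axis from 0, by stage and group (C control, M MOF cKO, Q QPC cKO). Points are libraries with 95% Poisson intervals and lines are means of 2 libraries, and at E16.5 the MOF cKO points of Serping1, C1ra, C1s1, C2 and Serpina3n stand above those of the controls.

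Of the 6 members that passed the filter at E16.5, 5 were called higher by edgeR's quasi-likelihood test at an adjusted p of 0.05, the exception being C3, and all 6 had both MOF cKO libraries above both controls. Among all 12569 genes tested, 2.43% were called higher and 4.64% were called in either direction, and 18.1% had both MOF cKO libraries above both controls. These counts describe the choice of the genes, since the contrast was used to choose them, and Cfb and C4b did not enter them. C3, Serpina3n and C1ra passed the filter only through their MOF cKO counts, so their place above the controls carries no weight. For C1ra this is because control replicate 2 lay just below the limit of the filter. The whole fit also leaned on 1 library: it called 583 genes, and 0 genes without control replicate 2. With library sizes alone in place of TMM scaling 837 genes were called, of which 346 were higher, against 305 of 583, and the log2 fold changes of the genes tested shifted by a median of -0.12.

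Transcripts of other cells were also higher in the same fibroblast-gated sums. The 7 macrophage markers outside the gate (Adgre1, Mrc1, Cd68, Fcgr1, Lyz2, Tyrobp and Fcer1g), all detected in every library, summed to 22.0 and 42.9 CPM in the E16.5 controls and to 101 and 225 CPM in MOF cKO. The 5 neutrophil and monocyte markers (S100a8, S100a9, Ly6c2, Ccr2 and Plac8) summed to 9.18 and 11.5 CPM against 89.1 and 73.1 CPM. Cells that met both the fibroblast and the macrophage gate numbered 1 and 4 among control cells against 9 and 45 among MOF cKO cells. With cells of more than 1 gate left out, C2 was at 5.99 and 3.53 CPM against 58.0 and 49.6 CPM and Cfb at 0.139 and 0.133 CPM against 0.907 and 2.81 CPM, so these values moved little. Macrophage-gated cells of the same libraries held Serping1 at 0 and 6.39 CPM against 11.8 and 38.8 CPM and Serpina3n at 0 and 0 against 19.0 and 10.3 CPM, below the fibroblast-gated MOF cKO levels of 110 and 111 CPM and of 210 and 30.02 CPM. The other way round, macrophage-gated MOF cKO cells held C3 at 80.4 and 24.8 CPM and Cfb at 78.6 and 61.0 CPM, far above the fibroblast-gated 1.78 and 1.05 CPM and 0.888 and 2.90 CPM, and C2 at 26.2 and 49.6 CPM against 57.7 and 49.6 CPM. The part that free RNA had in the low levels of C3 and Cfb was not tested.

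The higher levels at E16.5 came with more cells in which the transcript was seen. After each cell was thinned to 5000 UMIs (36, 190, 16 and 29 shallower cells left out of control replicates 1 and 2 and MOF cKO replicates 1 and 2), Serping1 was detected in 10.95% and 11.7% of fibroblast-gated control cells and in 35.7% and 37.7% of MOF cKO cells. The same shares were 19.8% and 20.7% against 59.5% and 56.0% before thinning. C2 was detected in 1.45% and 1.93% of thinned control cells and 18.7% and 19.0% of thinned MOF cKO cells. For C1ra the shares were 0.966% and 0.0805% against 9.16% and 9.67%, and for C1s1 0.805% and 1.29% against 7.37% and 8.59%. In all 4 genes the Wilson intervals of the controls lay below those of MOF cKO. These intervals cover only the sampling of cells within a library and leave out the spread between embryos.

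Serpina3n was detected in 0.161% and 0% of thinned control cells (1 of 621, and 0 of 1243) and in 38.4% (34.3% to 42.8%) and 11.04% (9.26% to 13.1%) of thinned cells of MOF cKO replicates 1 and 2. Before thinning its shares in MOF cKO were 48.8% and 15.6%. The cells of replicate 1 in which it was detected held 5.62 UMIs on average and those of replicate 2 held 2.27. The top 1% of cells held 10.9% and 24.9% of its UMIs, so the transcript was not limited to a few cells. As a reference for free RNA, Serpina3n was detected in 0 thinned endothelial-gated cells of either E16.5 control library and in 1 of 16 (6.25%, Wilson interval 1.11% to 28.3%) and 0 of 13 (0% to 22.8%) in MOF cKO. Before thinning it was in 2 of 16 and 2 of 14 of those cells (12.5% and 14.3%), which for replicate 2 is near the fibroblast-gated share. C1ra and C1s1 were detected in 0 thinned endothelial-gated cells of the 4 E16.5 libraries, and Serping1 in 1, 1, 1 and 0 of 7, 37, 16 and 13 cells, at median depths of 8986.5 to 19113 UMIs against 9755 to 12467 in fibroblast-gated cells. Those cells are too few to set a narrow limit, and the part of free RNA in the share of replicate 2 was not tested.

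**Figure D3:**
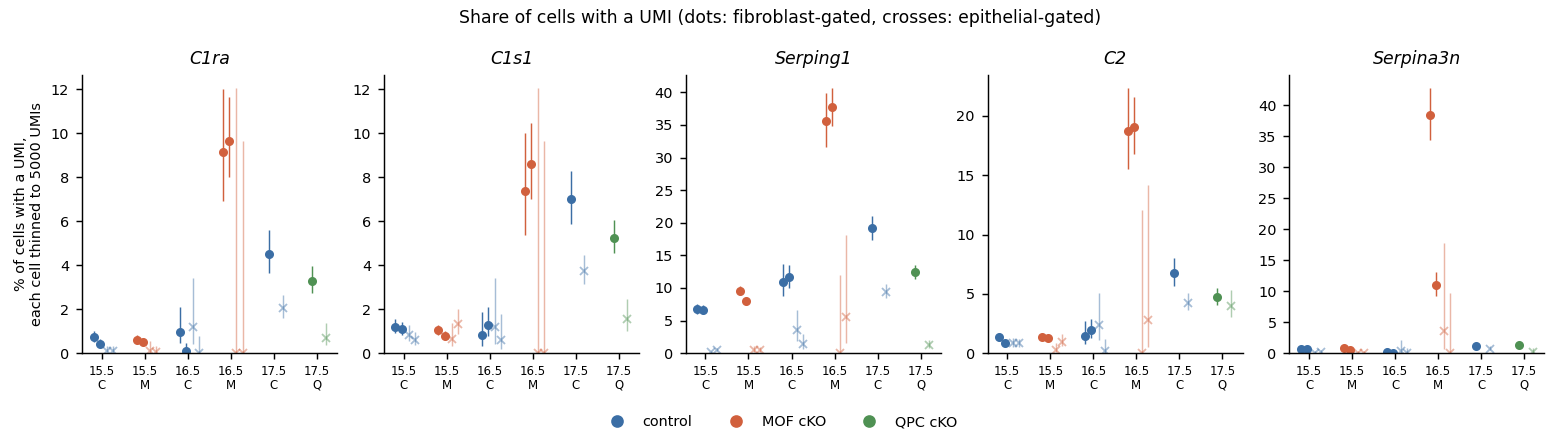
Share of cells with at least 1 UMI of C1ra, C1s1, Serping1, C2 and Serpina3n after thinning to 5000 UMIs, in percent with Wilson 95% intervals, for fibroblast-gated (dots) and epithelial-gated (crosses) cells of each library. The E16.5 MOF cKO dots stand highest, with Serping1 at 35.7% and 37.7%, although for C1s1 (7.37% and 8.59%) their intervals overlap that of the E17.5 control (6.99%).

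One day earlier the same comparison gave smaller differences for most members. At E15.5 Serping1 was at 14.9 and 15.4 CPM in control replicates 2 and 3 and at 21.1 and 18.8 CPM in MOF cKO replicates 5 and 6, means of 15.2 ± 0.36 and 19.9 ± 1.56 CPM (SD, n = 2 each) and a log2 fold change of 0.37 ± 0.10. It was the only 1 of the 7 members past the filter whose groups did not overlap, where 26.3% of the 16268 genes tested had both MOF cKO libraries above both controls. C1ra was at 1.42 and 0.856 CPM against 1.3 and 0.971 CPM, and C1s1 was at 2.84 and 2.35 CPM against 2.80 and 2.18 CPM. The groups thus overlapped for both proteases at E15.5. C2 was at 2.71 and 1.80 CPM against 2.53 and 3.19 CPM, and Serpina3n was at 1.23 and 1.67 CPM against 2.31 and 0.982 CPM. C3 and Cfb stayed below 0.4 CPM in all 4 libraries. Cfb had the largest log2 fold change of the members past the filter, 1.45 ± 0.86, from 10 and 45 UMIs in control and MOF cKO (pooled ratio 2.94, 95% interval 1.46 to 6.53, which covers counting error only), and its groups overlapped. Over the settings tried that log2 fold change ranged from 0.47 to 3.88. Cfb passed the filter only through its MOF cKO counts, so its direction carries no weight. Part of its count also lay in cells that met another gate. Without such cells 8 UMIs remained in MOF cKO replicate 5 and 18 in replicate 6 (0.0886 and 0.187 CPM). Control replicate 2 kept 5 and control replicate 3 kept 1 (0.0940 and 0.0146 CPM), so the groups still overlapped. In the sums of all fibroblast-gated cells C4b was counted 0 times in either control and 1 and 3 times in the MOF cKO libraries. In this fit edgeR called 0 members and 0% of genes. Before adjustment 2538 genes had a p under 0.05, and DESeq2 called 482.

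The log2 fold change at E16.5 exceeded that at E15.5 by 1.67 ± 0.17 for Serping1, by 3.87 ± 0.55 for C1ra, by 3.02 ± 0.31 for C1s1 and by 3.34 ± 0.36 for C2, and the corresponding value for Serpina3n was 9.70 ± 2.04. Each of these differences is given as a description. Over the settings tried that of Serpina3n ranged from 7.63 to 10.54. The fit called 188 of 14895 genes, 1.26%, for a difference between stages, and without E15.5 MOF cKO replicate 6, the mosaic embryo, it called 0 genes. Without that replicate the difference was still positive for each of the 5 genes.

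C3 and Cfb differed in macrophage-gated cells. At E15.5 C3 was at 9.15 and 2.99 CPM in the controls and at 28.9 and 28.0 CPM in MOF cKO, a log2 fold change of 2.13 ± 0.36. Cfb was at 17.6 and 4.97 CPM against 26.5 and 32.6 CPM, a log2 fold change of 1.3 ± 0.39. The groups did not overlap for either gene, although the controls lay far apart from each other in both. Over the settings tried the log2 fold change ranged from 1.59 to 3.28 for C3 and from 0.71 to 2.60 for Cfb. C2 at 11.7 and 16.4 CPM against 13.8 and 20.5 CPM, and C1ra at 2.20 and 4.48 CPM against 1.21 and 4.20 CPM, overlapped. Of the 4 members past the filter 1, C3, was called higher, where 0.966% of 10766 genes were called higher and 1.27% in either direction, and 2 had both MOF cKO libraries above both controls, as 22.4% of all genes had.

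At E16.5 the same pair had wider gaps on smaller counts. C3 had 1 and 0 UMIs in macrophage-gated cells of the controls (2.28 and 0 CPM) and 89 and 48 UMIs in MOF cKO (80.4 and 24.8 CPM), a pooled ratio of 40.9 with an interval of 7.22 to 1627. Cfb was at 6.83 and 4.26 CPM against 78.6 and 61.0 CPM, a log2 fold change of 3.64 ± 0.42. C2 was at 36.4 and 6.39 CPM against 26.2 and 49.6 CPM, which overlapped. These cells came with their own admixture, since fibroblast markers in them summed to 667 and 1161 CPM in the controls and to 2059 and 5044 CPM in MOF cKO. With cells of 1 gate only, C3 was at 3.28 and 0 CPM against 99.6 and 38.3 CPM and Cfb at 9.85 and 4.64 CPM against 97.4 and 97.8 CPM, whereas Serping1 in MOF cKO went from 11.8 and 38.8 CPM to 4.48 and 4.25 CPM and Serpina3n from 19.0 and 10.3 CPM to 11.2 and 0 CPM. Among the 3 members past the filter 2 had both MOF cKO libraries above both controls, against 23.1% of 7201 genes, and edgeR called 0% of genes (DESeq2 called 162, and 1055 had a p under 0.05 before adjustment). Those 2, C3 and Cfb, passed the filter only through their MOF cKO counts, so their place above the controls carries no weight.

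Other leukocytes, defined after the data were seen as cells in no gate with UMIs of at least 2 of Ptprc, Tyrobp and Coro1a, held C3 in the same order. C3 was at 10.6 and 5.19 CPM in E15.5 controls and 17.1 and 18.2 CPM in MOF cKO, and at 34.7 and 22.3 CPM in E16.5 controls and 92.5 and 38.8 CPM in MOF cKO. Cfb was at 1.16 and 1.62 CPM against 5.54 and 4.98 CPM at E15.5 and at 3.86 and 0 CPM against 87.6 and 28.0 CPM at E16.5. Both genes were higher in MOF cKO without overlap at both stages in this class, whose makeup may differ between the groups. The share of all genes without overlap was not computed in it, so these orders are description only. The E16.5 controls held 1 Cfb UMI in this class. Macrophage-gated cells held 57.8% of all C3 UMIs in E16.5 MOF cKO and 3.7% in its controls, where only 27 C3 UMIs were counted in all.

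Mural cells shared the C1 proteases and inhibitor with fibroblasts. At E15.5 C1s1 was at 50.4 and 39.4 CPM in control mural cells and at 31.0 and 21.5 CPM in MOF cKO. At E16.5 it was at 67.6 and 44.4 CPM against 80.0 and 94.8 CPM. The groups did not overlap at either stage, with opposite directions, and neither difference was tested. The share of all genes without overlap was not computed in these cells. C1ra in mural cells was at 9.65 and 14.8 CPM in E16.5 controls and 58.2 and 24.6 CPM in MOF cKO, and Cfb and C4b had 0 UMIs in mural cells throughout. Schwann cells, which ensheath nerves, also held C2, at 25.4 and 17.4 CPM in E15.5 controls and 11.5 and 21.6 CPM in MOF cKO. They held Serpina3n at 7.70 and 25.2 CPM in the E15.5 controls and 28.5 and 11.5 CPM in MOF cKO, 20.7% and 25.3% of its UMIs in kept cells, where fibroblast-gated cells were at 1.23 and 1.67 CPM against 2.31 and 0.982 CPM. At E16.5 Schwann cells had 0 Serpina3n UMIs in the controls and 25 in MOF cKO.

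Epithelial cells, in which Krt14-Cre acts, had low levels of the 8 genes at E15.5, although as a large class they held the shares of C1s1 and C2 given above. In epithelial-gated cells at E15.5 Serping1 was at 0.749 and 0.937 CPM in controls and 1.54 and 1.19 CPM in MOF cKO, a log2 fold change of 0.82 ± 0.40, and C1ra was at 0.154 and 0.139 CPM against 0.308 and 0.348 CPM. C1s1 at 1.41 and 1.48 CPM against 1.45 and 2.47 CPM, and C2 at 1.96 and 1.67 CPM against 0.881 and 2.23 CPM, overlapped. Fibroblast markers in the same cells summed to between 1365 and 1426 CPM in controls and between 1659 and 1737 CPM in MOF cKO. At E16.5 MOF cKO had only 30 and 39 epithelial-gated cells, and of the members only Serping1 passed the filter, at 11.4 and 2.64 CPM in controls against 1.73 and 4.999 CPM. Epithelial-gated cells that also reached the collagen limit of the fibroblast gate numbered 77 of 266 and 23 of 512 in the controls. In MOF cKO they numbered 0 and 3. Called genes made up 0% of 14625 at E15.5 (DESeq2 called 144, and 1360 had a p under 0.05 before adjustment) and 5.82% of 9938 at E16.5, with 0 members among them. In endothelial-gated cells no member passed the filter. There the calls made up 0.468% of 9609 genes at E15.5 and, at E16.5, 1.53% of 4053.

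At E17.5 the comparison was of QPC cKO with control, with 1 library each and so with no replicate check. In fibroblast-gated cells all 8 members were lower in QPC cKO. Serping1 was at 60.7 CPM in the control and 37.2 CPM in QPC cKO, a ratio of 0.613 with a counting interval of 0.578 to 0.650. The C1 proteases had like ratios, with C1s1 at 22.9 and 16.4 CPM (ratio 0.717, 0.654 to 0.786) and C1ra at 12.2 and 8.61 CPM (0.708, 0.623 to 0.804). C2 was at 13.3 and 9.54 CPM (0.719, 0.637 to 0.812) and Serpina3n at 4.11 and 2.83 CPM (0.688, 0.551 to 0.860). These 5 genes had ratios within a narrow range, and all 5 had at least 100 UMIs in 1 or both libraries and were at least 1.3-fold lower, as were 8.12% of the 12289 genes of that depth; 1.3 was set after the values were seen. The median log2 ratio of those genes was 0.11.

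C2 did not have this ratio in all cells. In Schwann cells it was at 84.1 CPM in the control and 97.6 CPM in QPC cKO, and such cells numbered 81, or 1.51% of kept cells, in the control and 786, or 12.8%, in QPC cKO. They held 8.84% and 54.4% of all C2 UMIs.

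C3 and Cfb were further apart at E17.5. C3 had 58 UMIs in fibroblast-gated control cells and 17 in QPC cKO (1.61 and 0.261 CPM, ratio 0.162), and Cfb had 40 and 9 UMIs (1.11 and 0.138 CPM, ratio 0.125). In macrophage-gated cells C3 was at 12.2 and 18.3 CPM and Cfb at 43.6 and 42.4 CPM, while C2 was at 53.2 and 19.5 CPM. C4b was at 0.278 and 0.184 CPM in fibroblast-gated cells, with an interval of the ratio of 0.263 to 1.72. Beside these values, macrophage markers in fibroblast-gated cells summed to 31.2 CPM in the control and 12.2 CPM in QPC cKO, neutrophil and monocyte markers to 31.0 and 19.6 CPM and fibroblast markers to 24326 and 17356 CPM, and their part in the ratios was not tested.

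The E17.5 libraries also shared 1702 cell barcodes, 20.7% and 17.1% of those listed, where other pairs of libraries of 1 stage shared 1 to 67. Among kept cells the shared barcodes made up 2.99% and 0.670%. Without them the ratio of Serpina3n was 0.811 with an interval of 0.641 to 1.03, which includes 1, and the ratios of the other members with at least 100 UMIs stayed below 1 with intervals that did not reach it. Epithelial-gated cells gave ratios further from 1 for Serping1 (0.115) and C1s1 (0.546), and both levels moved with the gate. Serping1 was at 27.2 and 3.14 CPM there and C1s1 at 10.4 and 5.66 CPM, but 1286 of 3069 control cells and 102 of 1162 QPC cKO cells also reached the collagen limit of the fibroblast gate. Without those cells Serping1 was at 2.06 and 0.267 CPM and C1s1 at 3.41 and 3.89 CPM, so the direction of C1s1 turned while the ratio of Serping1 was 0.129.

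**Figure D4:**
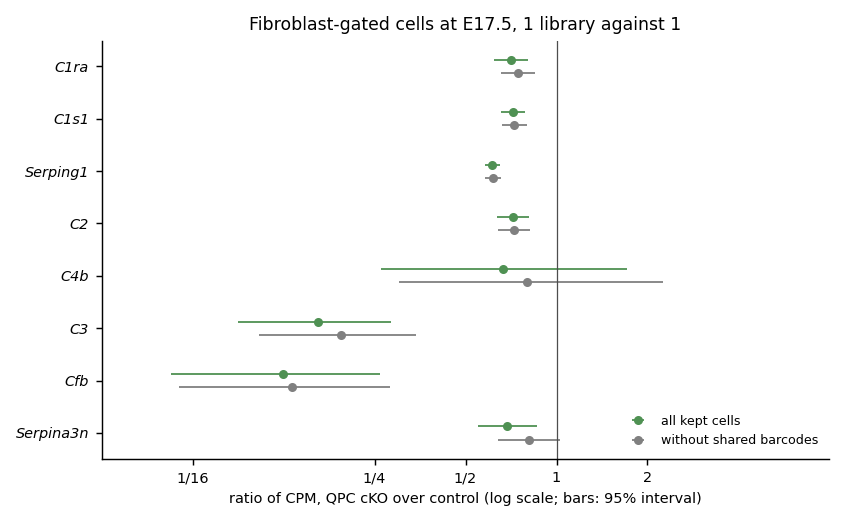
Ratio of QPC cKO to control CPM at E17.5 in fibroblast-gated cells for each member on a log axis, with 95% counting intervals, for all kept cells and without barcodes shared by the libraries. Serping1, C1s1, C1ra and C2 lie below 1 with both sets of cells, and Serpina3n reaches 1 without the shared barcodes.

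The rest of the complement system was tested in the same fits. Of 49 other complement genes 15 passed the filter at E16.5 and 0 were called by edgeR, 7 of them with a p under 0.05 before adjustment. Some other settings of edgeR did call a few genes of this list, as given in the part on processing below. DESeq2, with its own filter, tested 38 and called 4, C1qa, C1qb, C1qc and C3ar1, the last not among the 15. In the edgeR fit the 15 genes past the filter had a median log2 fold change of 0.62, against 0.01 for all genes tested. The recognition subunits of C1 were not called, with C1qb at 3.84 ± 0.0787 and 28.2 ± 22.7 CPM (adjusted p = 0.0553), C1qa at 1.66 ± 0.00689 and 19.1 ± 17.2 CPM (adjusted p = 0.0569) and C1qc at 2.96 ± 0.146 and 23.5 ± 22.8 CPM (adjusted p = 0.0793) in control and MOF cKO (mean ± SD, n = 2, edgeR). C1q genes are macrophage transcripts, C1qa and C1qb are part of the macrophage gate, and macrophage markers were higher in the same cells.

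Regulators and collectins that were abundant in fibroblast-gated cells of both groups were not called either. Colec12, a scavenger receptor of the collectin family, was at 66.1 ± 22.3 CPM in E16.5 controls and 86.5 ± 6.78 CPM in MOF cKO. Cd55, which speeds the decay of convertases, was at 50.5 ± 2.72 and 78.4 ± 41.0 CPM, and Cr1l (Crry), another membrane regulator, at 37.0 ± 1.71 and 34.9 ± 1.03 CPM. Vitronectin, Vtn, which binds terminal complexes, was low at 1.60 ± 0.29 and 4.22 ± 0.52 CPM (adjusted p = 0.0587), as was Cd93, a C1q-like receptor, at 0.779 ± 0.12 and 2.77 ± 0.98 CPM (adjusted p = 0.0741). Masp1, a protease of the lectin branch, was at 0.305 ± 0.038 and 1.29 ± 0.69 CPM and did not pass the filter. At E15.5 0 of 29 genes of the list were called (DESeq2 called 1, C1qb, and 8 had a p under 0.05 before adjustment), with a median log2 fold change of 0.16. In macrophage-gated cells at E15.5 2 of 16 were called, with Colec12 lower at 149 ± 4.75 against 236 ± 7.37 CPM (log2 fold change -0.67, adjusted p = 0.0281) and Cfp, properdin, which stabilises the alternative convertase, higher at 125 ± 0.98 against 72.8 ± 8.24 CPM (0.78, adjusted p = 0.0291). Without control replicate 2, or without control replicate 3, 0 of the list were called, and without MOF cKO replicate 5 it was 1.

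At E17.5, with 1 library each, the other complement genes of at least 100 UMIs whose intervals did not overlap went both ways in fibroblast-gated cells. Masp1 was at 8.08 CPM in the control and 16.8 CPM in QPC cKO and Cd59b, an inhibitor of the terminal pore, at 3.08 and 4.36 CPM. Cd55 was at 160 and 91.7 CPM, Clu (clusterin, which binds terminal complexes) at 6.11 and 2.07 CPM, Vtn at 9.78 and 6.56 CPM and Colec12 at 149 and 137 CPM.

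Serpina3n is also an acute-phase gene, and a list of 29 acute-phase genes with the receptors, ligands and transducers of interleukin-6 family signalling was set beside it. In fibroblast-gated cells at E16.5, 16 passed the filter and 12 rose in MOF cKO (edgeR, adjusted p from 0.0243 to 0.0415) and 0 fell, where 2.43% of all genes tested were called higher and 4.64% in either direction. The median log2 fold change was 1.78 against 0.01 for all genes tested. Saa3, Serpina3g and Osm passed the filter only through their MOF cKO counts, so they could hardly have been called lower. The list was drawn up with earlier results of these data known, and the calls rested on few libraries: 6 were called without control replicate 1, 0 without control replicate 2, 4 without MOF cKO replicate 1 and 11 without MOF cKO replicate 2. Hp, Cebpb, Il6ra and Lifr were not called by edgeR, while DESeq2, with its own filter, tested 24 of the list and called 14, the 12 with Hp and Lifr.

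Saa3, Serpina3g and Steap4 had the widest gaps of the 12. Saa3, an acute-phase apolipoprotein, was counted 0 times in controls and 1190 times in MOF cKO (53.8 ± 39.6 CPM), at least 460-fold higher against a floor of 3 UMIs over the control group. Macrophage-gated cells of the same MOF cKO libraries held 7272 Saa3 UMIs (2606 ± 1118 CPM), and macrophage markers and cells of both gates were higher in the same fibroblast-gated sums, as given above. Their part in the fibroblast value was not tested. Serpina3g, a relative of Serpina3n in the same cluster, was at 0.368 ± 0.32 and 17.8 ± 13.5 CPM (log2 fold change 5.39), and Steap4, a metalloreductase, at 2.29 ± 1.08 and 35.2 ± 26.2 CPM (4.16). For all 3 the SD of the MOF cKO libraries was most of their mean, and those of Serpina3n also lay far apart. Tnfaip6, a hyaluronan-binding protein, was at 144 ± 31.5 and 346 ± 71.0 CPM (1.41), and Ptx3, a pentraxin that binds C1q, at 25.5 ± 5.07 and 42.2 ± 4.36 CPM (0.86).

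Ligands, receptor chains and transducers of interleukin-6 family signalling were among the 12, although the receptor chains Il6ra and Lifr were not, Lifr being called by DESeq2 alone. Of the ligands, Il6 was at 20.4 ± 7.78 and 102 ± 11.7 CPM (2.49) and Osm, oncostatin M, at 0.474 ± 0.080 and 3.47 ± 1.35 CPM (2.92). Osm rested on 11 and 72 UMIs, macrophage-gated cells held it at 65.3 ± 34.3 and 149 ± 36.4 CPM, and macrophage and neutrophil markers were higher in the same fibroblast-gated sums, and their part in its value was not tested. Of the receptors, Osmr was at 2.45 ± 0.081 and 17.4 ± 6.11 CPM (2.94) and Il6st, the shared chain gp130, at 44.2 ± 0.30 and 101.9 ± 6.37 CPM (1.33), while Il1r1, the receptor of interleukin-1, was at 16.1 ± 2.21 and 36.9 ± 7.29 CPM (1.33). The transducer Stat3 was at 33.3 ± 1.63 and 81.9 ± 7.67 CPM (1.42), and Socs3, the feedback inhibitor that Stat3 induces, at 59.4 ± 24.2 and 232.5 ± 33.2 CPM (2.13). At E15.5 none of the 19 genes of the list that passed the filter was called (DESeq2 called 1, Ptx3, and 2 had a p under 0.05 before adjustment), with a median log2 fold change of 0.20, and Il6 was at 13.3 ± 0.056 and 15.04 ± 6.62 CPM.

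**Figure D5:**
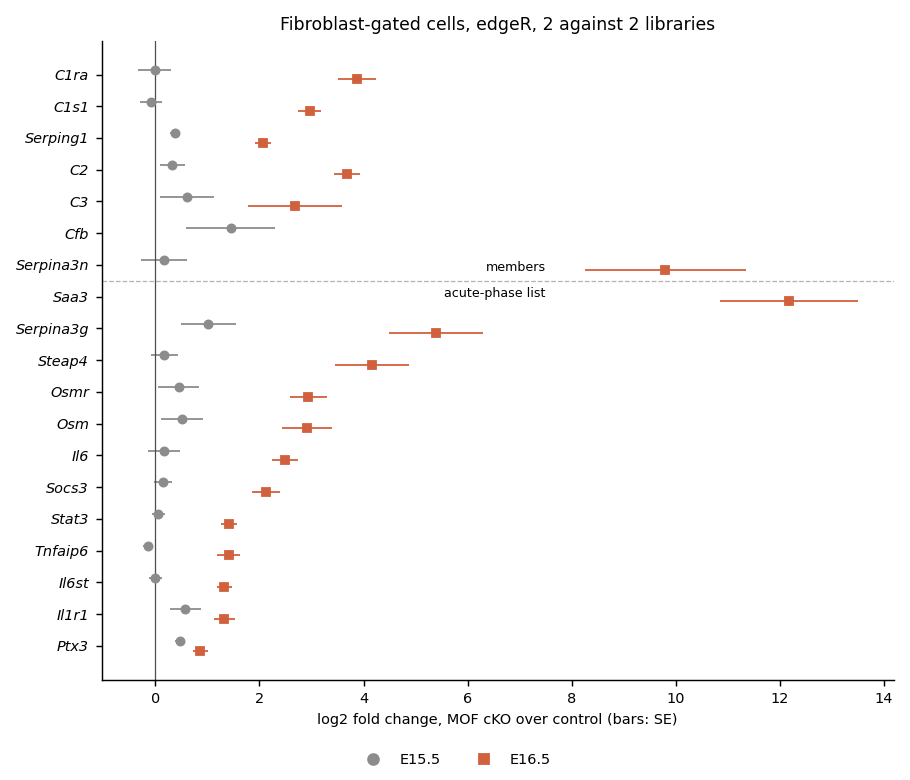
edgeR log2 fold change of MOF cKO over control ± SE in fibroblast-gated cells at E15.5 (grey) and E16.5 (orange), for the members that passed the filter above the dashed line and the 12 acute-phase genes called at E16.5 below it. The E15.5 values lie near 0 for most genes and the E16.5 values to the right of them, from 0.86 for Ptx3 upward, and that of Saa3 depends on the prior count since its controls are at 0.

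Across the 30 values of fibroblast-, epithelial- and macrophage-gated cells in the 10 libraries, the pair of members most alike was C3 with Cfb. The Pearson r of log2(CPM + 1) was 0.94 for this pair, 0.78 for C1ra with C2, 0.76 for C1s1 with Serping1, 0.73 for C2 with Cfb, 0.68 for C1ra with Serping1, 0.68 for Serping1 with Serpina3n, 0.67 for C2 with C3 and 0.63 for C1ra with C1s1, and these values share libraries, stages and gates. Of the 9503 genes compared, those most like Serping1 were Rarres2 (0.96) and Anpep (0.96), those most like C3 Mcemp1 (0.95) and Slfn1 (0.94), and those most like Cfb Clec4d (0.97) and Pirb (0.97). C2 was nearest to H2-Q4 (0.88) and Lgals3bp (0.87), C1ra to Rras (0.85) and Clec2d (0.80), C1s1 to Bmp1 (0.83) and Fgf7 (0.82) and Serpina3n to Reg3g (0.92) and Crispld2 (0.83). C4b, at or under a few UMIs in most libraries, had no near neighbour, with 0.62 for Gbp2 and 0.59 for Oasl1.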

How the data were processed

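Data were the count tables that the authors deposited for 10 libraries, whole-number UMI counts per gene and cell barcode; the submitters' processing notes name Cell Ranger 1.3.1 and 6.1.2 and mm10, the study's methods name 6.1.2 for single-cell counting, and the use of 1.3.1 is not given in the sources used here. The 8 members, the gates and the gene lists (49 other complement genes, 29 acute-phase genes, cell type markers) were chosen with earlier results of these data known. Counts of kept cells were summed per gate and library, and genes past edgeR's filterByExpr were tested across libraries of 1 stage with its quasi-likelihood test (edgeR 4.0.16, limma 3.58.1, R 4.3.3; TMM scaling; Benjamini-Hochberg adjusted p under 0.05), which the study did not use. DESeq2 1.42.0 was an alternative. The stage difference was an interaction term. Levels, exact Poisson, Wilson and conditional binomial 95% intervals, and thinning to 5000 UMIs used Python 3.11.15, numpy 2.4.6, scipy 1.17.1 and pandas 2.3.3. At E17.5 (1 library a group) nothing was tested. No doublet caller was run; cells of more than 1 gate were left out as an alternative. Scripts were tested on simulated data. All members are named; of each list, all called genes where 12 or fewer, up to 6 other complement genes of highest level, and at E17.5 up to 6 whose intervals did not overlap.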

Additional observations from a re-analysis of the deposited data

Results flagged for a closer look

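In fibroblast-gated cells the log2 fold change of MOF cKO over control differed between E16.5 and E15.5, by the interaction term of edgeR's quasi-likelihood fit over both stages, for 3 of 22 acute-phase genes tested, where 1.26% of all 14895 genes tested were called. The difference was 1.52 ± 0.26 for Tnfaip6 (adjusted p = 0.0458), 1.33 ± 0.21 for Stat3 (adjusted p = 0.0393) and 1.3 ± 0.21 for Il6st (adjusted p = 0.0408). In each gene both MOF cKO libraries lay above both controls at E16.5 and the groups overlapped at E15.5. Stage cannot be told apart here from the gene list of the tables. The study names the library kit of E15.5 but does not say which version of it was used there. The calls did not hold without E15.5 MOF cKO replicate 6.

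In mural cells C1s1 and C1ra went opposite ways at the 2 stages, with no overlap between the groups at either. The ratio of the mean CPM of MOF cKO to that of control was 0.584 at E15.5 (127 and 89 UMIs in control and MOF cKO) and 1.56 at E16.5 (13 and 38 UMIs) for C1s1, and 0.743 (23 and 20 UMIs) and 3.39 (3 and 15 UMIs) for C1ra. These differences between stages were not tested. The share of all genes without overlap was not computed in mural cells. The values of C1ra rest on few UMIs at both stages, and its 23 and 20 UMIs at E15.5 do not settle a direction there.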

How the results depend on the processing

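Direction held for each member past the filter in fibroblast-gated cells at E16.5 under every setting that gave a value, and in macrophage-gated cells for C3 and Cfb; at E15.5 C1ra, C1s1 and Serpina3n in fibroblast-gated cells changed sign under some. Counts of called genes moved most. DESeq2 was run with its own filter and tested more genes (23277 against 16268 in fibroblast-gated cells at E15.5, 18665 against 12569 at E16.5), so that test and filter changed together. In fibroblast-gated cells at E15.5 (0) DESeq2 gave 482 and no filter 222, and leaving out 1 library gave 0 to 114; at E16.5 (583) these were 938, 1752 and 0 to 369. In macrophage-gated cells at E15.5 (137) no filter gave 669, cells in 1 gate 240, a mitochondrial limit of 5% 52 and leaving out a library 24 to 206; at E16.5 (0) DESeq2 gave 162, library sizes alone 7, no filter 416, cells in 1 gate 107, the limit of 5% 3 and leaving out a library 0 to 55. In epithelial-gated cells at E15.5 (0) DESeq2 gave 144, no filter 1 and leaving out a library 1 to 7015, the last without MOF cKO replicate 6; at E16.5 (578) no filter gave 2007, gates scaled to the depth of each cell 1214, the limit of 5% 316, leaving out cells at the collagen limit (added after seeing the data) 290 and leaving out a library 39 to 1112, and library sizes alone gave 263 higher of 812 against 465 of 578. In endothelial-gated cells at E15.5 (45) DESeq2 gave 17, no filter 316, gates scaled to depth 6 and leaving out a library 42 to 118; at E16.5 (62) DESeq2 gave 24, library sizes alone 17, no filter 213 and leaving out a library 0 to 268. The stage difference (188) went to 314 with library sizes alone and to 0 to 844 with a library left out. Acute-phase genes called in fibroblast-gated cells at E16.5 (12) went to 0 to 11 with a library left out. Other complement genes there (0) went to 4 with DESeq2, 2 with library sizes alone, 6 with no filter, 3 with cells in 1 gate, 2 at the limit of 5% and 0 to 3 with a library left out, and in macrophage-gated cells at E15.5 (2) to 7 with no filter and 0 to 3 with a library left out. Where a library was left out, the lone one was assumed to vary like the other group. In epithelial-gated cells at E17.5 the log2 ratio of C1s1 went from -0.87 to 0.44 with gates scaled to depth (added after seeing the data) and 0.19 without cells at the collagen limit, that of C1ra from -2.27 to 0.069 and -0.46, that of C2 from -0.15 to 0.89 and 0.19, and that of Serping1 from -3.12 to -2.61 at the limit of 5%. The cause of these moves was not tested, beyond the fewer libraries, cells or genes that a setting itself leaves.

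The E16.5 groups share the numbers 1 and 2. The study describes pairs of samples with littermate controls, but neither it nor the labels say that equal numbers mark a pair. Deviations of equal numbers correlated at -0.04 over 12569 genes. With the replicate number as a block, 576 genes were called in fibroblast-gated cells, 549 in epithelial-gated, 0 in macrophage-gated and 0 in endothelial-gated cells, and 2 other complement genes in fibroblast-gated cells. At the other stages no paired analysis was possible because the E15.5 groups share no number and E17.5 has 1 library a group. Depth limited C3, Cfb and C4b in fibroblast-gated cells and every E16.5 cKO epithelial value.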

Other observations

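The acute-phase list was also read in the other cells. In macrophage-gated cells at E15.5 1 of 15 genes was called, Saa3, at 4.27 ± 5.34 CPM in controls and 37.6 ± 17.8 CPM in MOF cKO (log2 fold change 2.96, edgeR adjusted p = 0.0482), where 1.27% of all genes tested were called and DESeq2 called none of the list. At E16.5 0 of 11 were called there (5 at an unadjusted p under 0.05, 3 by DESeq2), and Saa3, at 0 UMIs in the controls, had the level in MOF cKO given beside its fibroblast value. In endothelial-gated cells at E16.5 2 of 5 were called, Socs3 at 52.3 ± 18.6 and 297 ± 44.1 CPM (2.47) and Lrg1, a secreted glycoprotein of vessels, at 35.5 ± 5.08 and 134 ± 61.0 CPM (2.19), from 44 and 173 UMIs of Socs3 and 23 and 79 of Lrg1 in control and MOF cKO. Of all genes tested there 1.53% were called, DESeq2 called only Socs3 of the list, and with the replicate block or without MOF cKO replicate 1 no gene was called. In epithelial-gated cells at E16.5 3 of 14 were called, against 5.82% of all genes tested, with Il6ra (1.96) and Saa3 (6.68) higher and Saa1 lower. Saa1 had 165 UMIs in the controls and 0 in MOF cKO, at least 6.63-fold lower against a floor of 3 UMIs over the MOF cKO group. DESeq2 called Saa3 and Saa1 but not Il6ra. MOF cKO had only 30 and 39 epithelial-gated cells at E16.5, of which 1 and 4 also met the macrophage gate. Macrophage-gated cells of the same libraries held Saa3 at the level cited above, and their part in the epithelial value was not tested. With library sizes alone in place of TMM scaling, the log2 fold changes of this fit shifted by a median of -0.60.

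At E17.5, with 1 library each and no test, Il6 was at 218 CPM in the control and 42.2 CPM in QPC cKO in fibroblast-gated cells, Tnfaip6 at 1538 and 612.6 CPM and Ptx3 at 188 and 73.4 CPM. Socs3 was at 241.5 and 233 CPM, and Il6st at 106.9 and 87.2 CPM. The median log2 ratio of the 12289 genes compared there was 0.11. Macrophage markers in the same sums were at 31.2 and 12.2 CPM and neutrophil and monocyte markers at 31.0 and 19.6 CPM, and their part in these values was not tested.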
